A study of Mus musculus with 5 samples.

Results

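Cytosolic ribosomal protein genes encode the protein subunits of the ribosome that translates messenger RNA outside mitochondria. They were chosen by gene symbol alone (Rpl or Rps followed by a number, Rplp0 to Rplp2, and Rpsa, with the Rps6k kinases left out), which found 88 of the 24421 gene symbols counted. Of these, 43 encode proteins of the large subunit, 31 proteins of the small subunit and 3 the proteins of the ribosomal stalk, and these 77 are called core genes here. A further 10 are paralogs, second copies of a core gene, and Rps19bp1 matches the symbol rule but encodes a protein that binds Rps19, so it was kept apart. A gene was tested if at least 3 of the 5 mice reached 10 counts. By that filter 85 of the 88 were tested, all 77 core genes among them, and the other 3 (the paralogs Rpl10l, Rpl39l and Rps27rt) had 0 counts in every mouse.

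The data at hand are RNAseq of the kidney cortex of 3 Fnip1 null mice (8637, 9210 and 9121, Fnip1-/-) and 2 wildtype mice (9055 and 9056, Fnip1+/+), all on the C57BL6J background, 1 library per mouse. A figure legend of the study gives 3 mice of each genotype for its RNAseq, but only 2 wildtype libraries are available here. The null allele came from ENU mutagenesis and is not confined to the kidney, and the labels give neither age nor sex. The figure legend gives an age range in weeks for its mice as a whole. The age of each mouse, and its balance between the groups, is not known here. The labels give the controls as Fnip1+/+, while the text of the study calls them Fnip1+/-, so whether they carry a null allele cannot be told here, and they are called wildtype after the labels. Fnip1 itself, the mutated gene, was at 21.0, 16.9 and 16.0 CPM (read counts brought to one library size by TMM normalization) in the Fnip1 null mice and at 51.7 and 48.6 CPM in the wildtype mice. Its log2 fold change was -1.48 ± 0.14 (SE; n = 3 and 2; adjusted p = 0.033 by edgeR's quasi-likelihood test with Benjamini-Hochberg adjustment), lower in all 3 Fnip1 null mice, as their labels have it. Reads counted on genes ran from 15799114 to 19132145 per mouse, at which depth 3 counts correspond to 0.158 to 0.186 CPM. Mouse 9121 had Xist at 314 CPM and Ddx3y at 0 CPM. The other 4 mice, both wildtype mice among them, had Xist at 0.171 to 1.41 CPM and Ddx3y at 42.8 to 52.1 CPM. By these sex-linked transcripts mouse 9121 is female and the others are male. Sex is therefore not balanced between the groups, and its part in the values was not tested. Results are also given without mouse 9121.

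A ribosome needs nearly every core protein in equal number, and the genes are expressed in every cell at high and closely matched levels. Fnip1 binds folliculin and AMPK, regulators of the mTORC1 kinase. mTORC1 acts on ribosomal proteins through the S6 kinases, which phosphorylate Rps6, and through the terminal oligopyrimidine (TOP) tract, a C followed by a run of C and T at the very start of the transcript, which places translation of these messages under mTORC1. The present values are transcript counts and do not measure translation or phosphorylation.

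A TOP tract is typical of ribosomal protein genes, so the region around the annotated start is shown for members described below. Each line is the 30 bases around a RefSeq start on GRCm38.p6, 15 before it and 15 from it onward, written 5′ to 3′ on the gene's strand, with capitals marking every C followed by 4 or more C or T. Rps6 (chr4:86857353-86857382, minus strand), Rplp2 (chr7:141447636-141447665, plus), Rpl12 (chr2:32961697-32961726, plus), Rps21 (chr2:180257364-180257393, plus) and Rpl36a (chrX:134585639-134585668, plus) hold such a run. Rps21 has a further RefSeq start (chr2:180257434-180257463), whose window holds none. Rps4x (chrX:102189377-102189406, minus), Rpl36al (chr12:69184053-69184082, minus) and Rpl7l1 (chr17:46782642-46782671, minus) hold none in this window. The genes shown do not stand for their classes. Of members not shown, the paralog Rpl22l1 holds a run and the core gene Rpl41 holds none. The core gene Rpl22 and the paralog Rps27l hold a run at some of their RefSeq starts only. A run in the window need not be a TOP tract, which lies at the very start of the transcript. In Rpl12 and Rpl36a the runs begin only after the annotated start.
Rps6: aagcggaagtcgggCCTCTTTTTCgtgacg
Rplp2: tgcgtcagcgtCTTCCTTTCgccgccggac
Rpl12: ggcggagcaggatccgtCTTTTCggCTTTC
Rps21: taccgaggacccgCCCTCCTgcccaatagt
Rpl36a: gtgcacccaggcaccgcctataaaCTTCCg
Rps4x: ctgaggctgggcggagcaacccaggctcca
Rpl36al: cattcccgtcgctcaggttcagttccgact
Rpl7l1: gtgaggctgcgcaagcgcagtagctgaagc

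RefSeq promoter windows, from 250 bases before to 50 after a start, were at hand for 67 of the 88 genes. A C followed by 4 or more C or T lay within 20 bases of a start in 76.1% of these genes and in 49.9% of all 27025 genes with a window. With 6 or more C or T after the C, the shares were 52.2% and 21.4%. On either strand of the whole window, CCGGAAG (an ETS-type motif) was found in 38.8% of members against 9.9% of all genes, GGGCGG (a GC box) in 61.2% against 38.2%, AAGATGG (a YY1-type motif) in 14.9% against 7.3% and TATAAA in 10.4% against 15.7%. The motifs may overlap one another, and a match describes letters in a window and not a site in use.

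Most core genes had somewhat higher mean values in Fnip1 null than in wildtype kidney tissue, but no gene passed the test, and the median member of mouse 8637 lay within the wildtype range after TMM scaling. The log2 fold change was positive for 74 of 77 core genes, with a median of 0.16 (1.12-fold), against a median of 0.0035 and 50.5% positive over all 13874 genes tested. By edgeR's quasi-likelihood test, 0 of the 85 members tested were higher and 0 were lower at an adjusted p under 0.05, where 0.526% and 0.151% of all genes were called higher and lower. At an unadjusted p under 0.05 by this test, 7 of the 85 members were higher and 1 was lower, against 1936 and 1552 of all 13874 genes. The smallest adjusted p was 0.14, for the paralog Rpl7l1. edgeR's exact test called 0 members, where it called 9.82% of all genes. It gave 1 of the 85 members an unadjusted p under 0.05, against 3262 of all 13874 genes. The likelihood ratio test and DESeq2 also called 0 members. For the 69 members of at least 100 CPM, the SE of a log2 fold change lay between 0.083 and 0.14, so a typical difference of 0.15 was not detectable gene by gene with 3 and 2 mice.

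The members took up 2.00%, 2.43% and 2.38% of all gene counts in mice 8637, 9210 and 9121 and 1.81% and 1.87% in mice 9055 and 9056. The Fnip1 null mean was 2.27% ± 0.24 (SD, n = 3), the wildtype mean 1.84% ± 0.043 (SD, n = 2), and the groups did not overlap. The widest exact 95% binomial interval of a single mouse was 2.43% to 2.44%, which covers counting error only and is far narrower than the spread between mice. A share of counts moves with the few most abundant transcripts, and the 10 most abundant genes held 8.44%, 7.56% and 7.71% of counts in the Fnip1 null mice and 8.84% and 9.25% in the wildtype mice. After TMM scaling the members summed to 20339, 22854 and 21867 CPM in Fnip1 null and to 18949 and 20472 CPM in wildtype mice, and here the groups overlapped, since mouse 8637 lay below wildtype mouse 9056.

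**Figure D1:**
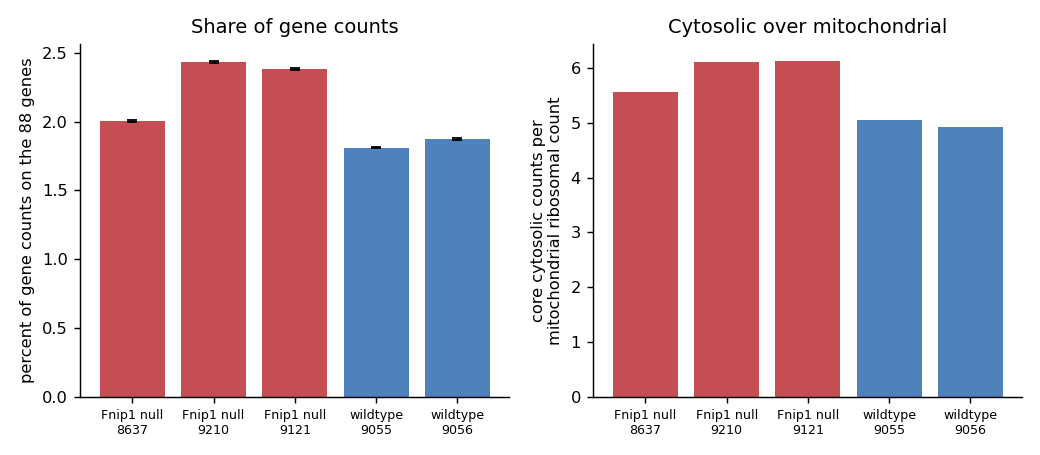
Left, the percent of gene counts on the 88 ribosomal protein genes in each mouse, with exact 95% binomial intervals. Right, counts on core cytosolic ribosomal protein genes per count on mitochondrial ribosomal protein genes. Fnip1 null mice are red and wildtype mice blue; all 3 Fnip1 null mice lie above both wildtype mice in each panel, with mouse 8637 the nearest to them at 2.00% and 5.57.

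The members moved together within each mouse, between mice of the same genotype too. Measured from the wildtype mean on the scale of log2(CPM + 0.5), the median member was at 0.046 in mouse 8637, 0.24 in mouse 9210 and 0.16 in mouse 9121. Of the 85 members tested, 39, 77 and 68 were above both wildtype mice in the same order (45.9%, 90.6% and 80.0%), against 37.1%, 41.8% and 43.3% of all genes tested. In mouse 9210 all 68 core genes of at least 100 CPM were above the wildtype mean, in mouse 9121 it was 64 and in mouse 8637 it was 53. The wildtype mice were themselves apart, with 84 of 85 members higher in mouse 9056 than in mouse 9055 and a median difference of 0.12 on the log2 scale. Over all genes 51.4% were higher in mouse 9056, with a median difference of 0.0076. The median difference between genotypes, 0.15 over all members tested, was therefore not far above the difference between the wildtype mice, and the members are not independent of one another.

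**Figure D2:**
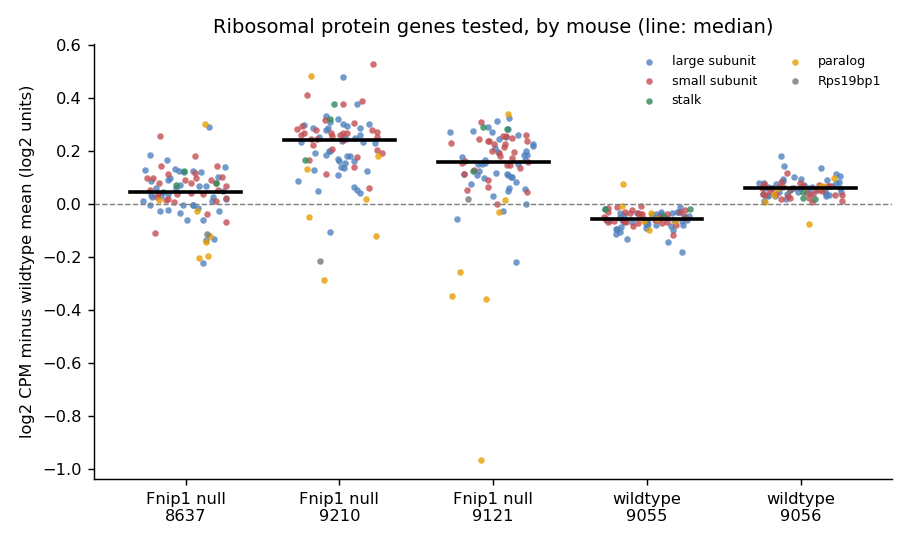
Each point is a ribosomal protein gene tested (n = 85), placed by its log2(CPM + 0.5) minus the mean of the wildtype mice, with colour for its class and a line at the median of each mouse. Medians stand at 0.046, 0.24 and 0.16 in the Fnip1 null mice and at -0.058 and 0.058 in the wildtype mice, and the lowest points in mouse 9121 are paralogs.

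All 3 Fnip1 null mice were above both wildtype mice for 38 members (44.7%) and below both for 2, where 22.9% of all genes tested lay wholly above and 23% wholly below. All 38 were core genes, and the 2 lower genes were the paralogs Rpl7l1 and Rpl36al. Without mouse 8637, the median over the 85 members was 0.21 and 4 members were called higher by edgeR's quasi-likelihood test (Rps4x, Rpl12, Rplp1 and Rplp2, adjusted p between 0.043 and 0.049) and 0 lower. In the same fit 10% of all genes were called higher and 9.98% lower, so the members' 4.71% was below the share over all genes. Without mouse 9055 the median was 0.10 with 66 members positive, and without mouse 9121 it was 0.14 with 77 positive.

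The small subunit genes were positive in 31 of 31 cases with a median log2 fold change of 0.18, the large subunit genes in 40 of 43 with 0.14. Counts on small subunit genes per count on large subunit genes were 0.735, 0.737 and 0.731 in Fnip1 null and 0.726 and 0.718 in wildtype mice. This ratio, which scaling between libraries cannot change, did not overlap between groups (difference in log2 0.024, exact permutation test, two-sided p = 0.1, the smallest that 3 mice against 2 allow, and adjusted p = 0.27 over the 8 ratios compared).

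Rps6, the S6 kinase substrate of the small subunit (chr4:86854660-86857412, GRCm38), was at 425, 478 and 450 CPM in Fnip1 null and at 379 and 415 CPM in wildtype mice. The groups did not overlap, but the lowest Fnip1 null mouse and the highest wildtype mouse were close. Its log2 fold change was 0.18 ± 0.11 (SE; quasi-likelihood adjusted p = 0.34). Rps21, a small subunit protein (chr2:180257377-180258445), was the most even, with 179, 178 and 180 CPM against 145 and 156 CPM. Here the 3 Fnip1 null mice, mouse 8637 included, were nearly equal and all stood above the wildtype mice, with a log2 fold change of 0.25 ± 0.083 (SE) and an adjusted p of 0.14 in edgeR's test. Rps4x, the X-linked small subunit gene (chrX:102184941-102189394), was at 375, 445 and 421 CPM against 328 and 352 CPM, a log2 fold change of 0.28 ± 0.12 (SE).

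Other small subunit genes differed less. Rpsa, also known as the laminin receptor, was at 560, 576 and 577 CPM against 529 and 575 CPM, and its groups overlapped. Rps27a, which is made as a fusion with ubiquitin, was at 213, 255 and 232 CPM against 219 and 229 CPM, and its lowest value was in a Fnip1 null mouse. Rps2, the most abundant member per length at 820 CPM per 1000 bases, was at 841, 860 and 795 CPM against 751 and 842 CPM. The log2 fold changes of these 3 genes were 0.049 (Rpsa), 0.063 (Rps27a) and 0.062 (Rps2).

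The stalk is the arm of the large subunit that recruits the GTPases of translation, and all 3 of its genes were higher in each Fnip1 null mouse than in either wildtype mouse. Rplp0, its base (chr5:115559467-115563727), was at 770, 818 and 795 CPM against 719 and 738 CPM. Rplp1 (chr9:61913284-61914542) was at 305, 377 and 355 CPM against 286 and 294 CPM. Rplp2 (chr7:141447370-141451585) was at 119, 137 and 133 CPM against 106 and 113 CPM. The log2 fold changes were 0.12 ± 0.12, 0.25 ± 0.12 and 0.25 ± 0.097 (SE) for Rplp0, Rplp1 and Rplp2, with adjusted p of 0.53, 0.25 and 0.19 by edgeR's quasi-likelihood test. Rpl12, which sits at the base of the stalk (chr2:32961559-32965345), was at 178, 213 and 198 CPM against 162 and 166 CPM, a log2 fold change of 0.26 ± 0.10 (SE).

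Of the other large subunit genes, Rpl36a (chrX:134585654-134588062) had the most positive log2 fold change among members with a mean of at least 1 CPM. It was at 87.5, 107 and 93.0 CPM in Fnip1 null and at 73.8 and 80.1 CPM in wildtype mice, so the groups did not overlap, and its log2 fold change was 0.32 ± 0.11 (SE; adjusted p = 0.16 in edgeR's quasi-likelihood test). Rpl3, a core protein of the peptidyl transferase region, was at 503, 582 and 589 CPM against 456 and 485 CPM. Rpl39, a small protein of the exit tunnel, was at 124.5, 145 and 127 CPM against 114 and 124.2 CPM, with mouse 8637 barely above mouse 9056. Rpl22, an RNA-binding protein at the surface of the subunit, was at 140, 157 and 157 CPM against 139 and 141 CPM, and overlapped. Rpl10, which joins late in large subunit assembly, was at 487, 507 and 515 CPM against 463 and 516 CPM, and its highest value was in a wildtype mouse. Rpl7 was at 443, 518 and 509 CPM against 421 and 449 CPM, with mouse 8637 between the wildtype mice.

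The X chromosome carries 4 members (Rpl36a, Rps4x, Rpl39 and Rpl10), all with a positive log2 fold change and with a median of 0.22. Mouse 9121, the mouse with Xist, was not the highest of the Fnip1 null mice for Rpl36a, Rps4x or Rpl39, which were each highest in mouse 9210. For Rpl10 it was the highest Fnip1 null mouse at 515 CPM. Without mouse 9121 the log2 fold changes kept their sign for these genes.

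For only 3 core genes was the log2 fold change negative, and each difference was smaller than its SE. Rpl26 was at about 1 CPM in every mouse and had -0.19 ± 0.31 (SE). Rpl41, one of the smallest proteins known, was at 306, 347 and 322 CPM against 318 and 354 CPM, a log2 fold change of -0.048 ± 0.11 (SE). Rpl35a was at 174, 220 and 200 CPM against 191 and 217 CPM, a log2 fold change of -0.044 ± 0.13 (SE). Both groups overlapped for these 3 genes. Under scaling by library size alone Rpl41 and Rpl35a became positive, at 0.12 and 0.13.

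The paralogs were mostly negative, 5 of 7 tested, with a median log2 fold change of -0.17. None of the 7 passed an adjusted p under 0.05. At an unadjusted p under 0.05 by edgeR's quasi-likelihood test 1 was lower and 0 were higher, against 1552 and 1936 of all 13874 genes. Rpl7l1, a nucleolar relative of Rpl7 (chr17:46773907-46782672), was at 84.2, 79.1 and 80.9 CPM in Fnip1 null and at 94.4 and 98.9 CPM in wildtype mice. The groups were apart, with a log2 fold change of -0.25 ± 0.081 (SE; adjusted p = 0.14 by edgeR's quasi-likelihood test). Rpl36al, an autosomal copy of X-linked Rpl36a (chr12:69182731-69184083), was at 105, 111 and 95.0 CPM against 113 and 129 CPM, a log2 fold change of -0.23 ± 0.11 (SE; adjusted p = 0.25 in the same test). Rps27l, a target of p53, was at 82.5, 86.9 and 70.0 CPM against 86.4 and 93.4 CPM, and overlapped. The median over the 7 paralogs was -0.002 without mouse 9121, which had the lowest value of Rps27l, Rpl36al and Rpl3l.

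The remaining paralogs were low. Rpl22l1, the relative of Rpl22, was at 19.1, 23.3 and 20.7 CPM against 20.2 and 22.2 CPM. Rps4l, annotated as a transcribed processed pseudogene, was at 13.8, 19.2 and 17.4 CPM against 14.4 and 12.9 CPM, and its groups overlapped. Its log2 fold change of 0.30 ± 0.17 (SE; adjusted p = 0.32 by edgeR's quasi-likelihood test) was the most positive of the paralogs. Rpl37rt, also annotated as a transcribed processed pseudogene, was at 11.4 to 13.6 CPM over the 5 mice. Rpl3l, known from muscle, was at 2.36, 1.84 and 0.686 CPM against 1.80 and 1.83 CPM. The testis paralogs Rpl10l and Rpl39l had 0 counts in all 5 mice, which at 3 counts allows up to 0.158 to 0.186 CPM per mouse. Rps19bp1 was at 15.4, 14.3 and 16.9 CPM against 16.1 and 17.4 CPM, and its small negative log2 fold change of -0.10 became 0.061 under scaling by library size alone, as that of Rpl22l1 went from -0.013 to 0.15.

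Parent and paralog could also be set against each other within a library, without any scaling between mice. Counts on Rpl36a per count on Rpl36al were 0.834, 0.968 and 0.979 in Fnip1 null and 0.653 and 0.620 in wildtype mice, a difference in log2 of 0.54 with no overlap (exact permutation test, two-sided p = 0.1, the smallest the design allows, and adjusted p = 0.27 over the 8 ratios). Rpl7 per Rpl7l1 was 5.26, 6.55 and 6.30 against 4.46 and 4.54, again with no overlap (difference in log2 0.42, exact permutation p = 0.2). Rpl22 per Rpl22l1 (6.74 to 7.59 against 6.36 and 6.88) and Rps4x per Rps4l (23.1 to 27.2 against 22.8 and 27.3) overlapped. The pairs were looked at with their fold changes known, so these ratios describe the mice and do not test a pattern anew.

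The coding sequences show how far reads can tell such copies apart. Rpl36a and Rpl36al each have 318 coding bases and were 87.7% identical, and Rps27 and Rps27l, each of 252 coding bases, were 76.2% identical. The first 90 coding bases of each (GENCODE M21, GRCm38) are given with capitals at the bases that differ within a pair, of which there are 14 in the first pair and 24 in the second.
Rpl36a: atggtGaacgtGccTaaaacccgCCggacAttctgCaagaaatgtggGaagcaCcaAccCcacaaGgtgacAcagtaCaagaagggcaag
Rpl36al: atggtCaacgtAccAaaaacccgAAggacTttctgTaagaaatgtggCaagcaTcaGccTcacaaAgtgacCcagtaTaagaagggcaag
Rps27: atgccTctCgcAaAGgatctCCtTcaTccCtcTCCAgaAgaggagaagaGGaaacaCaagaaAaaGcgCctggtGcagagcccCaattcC
Rps27l: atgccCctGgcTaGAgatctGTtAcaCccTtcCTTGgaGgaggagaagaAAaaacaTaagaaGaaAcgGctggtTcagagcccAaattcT

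**Figure D3:**
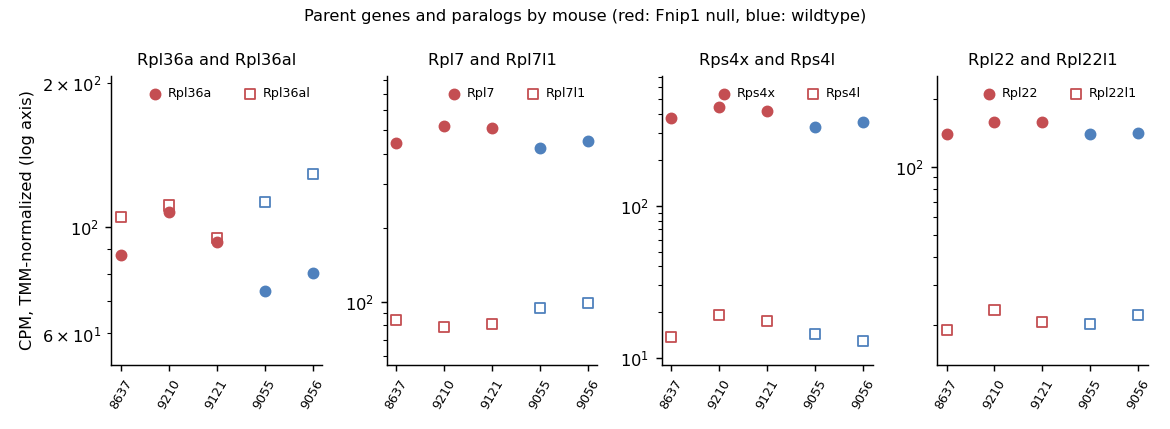
CPM (log axis) of a parent gene (filled circles) and its paralog (open squares) in each mouse, for 4 pairs, with Fnip1 null mice in red and wildtype mice in blue. In counted reads Rpl36a lies below Rpl36al in every mouse, with the widest distance in the wildtype mice (73.8 and 80.1 against 113 and 129 CPM). The other paralogs lie far below their parents. Of the transcript windows, 14.52% in Rpl36a and 36.69% in Rpl36al were found in no other gene. Whether uncounted reads set the order of this pair was not tested.

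Reads that align to more than 1 place were not counted, and ribosomal protein genes have many processed pseudogenes, so levels differ in how much of a transcript can be counted. In GENCODE M21 transcripts, 84 of the 88 members shared at least one 50-base window with an annotated pseudogene, and a median of 45.0% of a member's windows were found in no other gene. Per 1000 bases of transcript, Rps2 (820 CPM), Rplp1 (649 CPM) and Rpl10 (623 CPM) were the highest and Rpl3l (1.24 CPM), Rps27 (1.88 CPM) and Rpl26 (1.99 CPM) the lowest of the genes tested. These levels rest on 1 transcript per gene, the shortest of the best-supported ones. Rps27, a core small subunit gene, was at 0.589, 0.951 and 0.686 CPM in Fnip1 null and 0.497 and 0.514 CPM in wildtype mice, and 1.35% of its windows were unique, the lowest share of any core gene. Its coding sequence is identical to that of Rps27rt, which had 0 counts. Its log2 fold change of 0.54 ± 0.43 (SE; adjusted p = 0.46 by edgeR) was the most positive of all members and the least certain of the core genes. The 4 core genes under 10 CPM were Rps27, Rpl26, Rpl30 and Rpl34, and the last 3 had 28.72%, 23.61% and 49.42% unique windows. A low unique share did not always go with a low level, since Rpl10 had 7.87% unique windows and a mean of 498 CPM. The part of uncounted reads in these low levels was not tested. Rpl36a had 14.52% unique windows and its paralog Rpl36al 36.69%. The part of uncounted reads in the order of their CPM was not tested either.

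**Figure D4:**
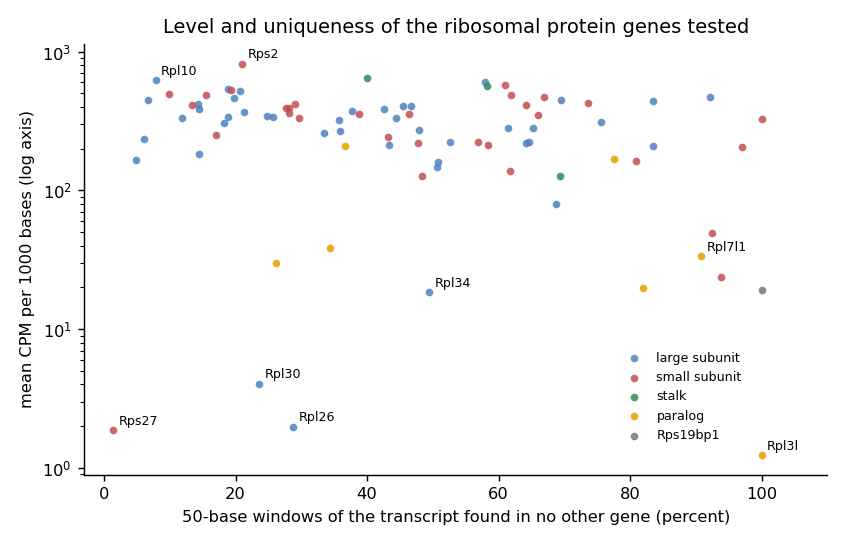
Mean CPM per 1000 bases of transcript (log axis) against the percent of 50-base windows found in no other gene, for the 85 members tested, coloured by class. Most core genes lie between 100 and 820 CPM per 1000 bases at any unique share. Below stand Rps27, Rpl26, Rpl30 and Rpl34, and also Rps15a (23.8), Rps20 (49.3) and Rpl37 (80.3). For Rps15a and Rps20 the transcripts used have 5130 and 3706 bases, with coding sequences of 390 and 357 bases.

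Other components of translation were compared in the same fit, from lists chosen with earlier results known. Among other parts of the cytosolic ribosome, Fau was at 255, 279 and 269 CPM against 247 and 250 CPM, and the scaffold Gnb2l1, also called Rack1, at 444, 487 and 458 CPM against 427 and 434 CPM, with no overlap between groups in either gene. Of 21 translation factors and partners whose messages carry a TOP tract, 14 were positive with a median of 0.080, led by Npm1 (205, 226 and 205 CPM against 170 and 180 CPM) in the positive and Nap1l1 (188, 171 and 153 CPM against 203 and 213 CPM) in the negative direction. Of 18 genes tested for S6 kinases and the control of translation by mTORC1, 9 were positive, and the smallest p were those of Pdcd4, an inhibitor of eIF4A (54.0, 70.8 and 68.1 CPM against 47.4 and 48.9 CPM) and Eif4ebp1, the inhibitor of eIF4E (12.1, 16.9 and 18.7 CPM against 10.9 and 10.4 CPM). By edgeR's quasi-likelihood test 0 genes of the last 2 lists had an adjusted p under 0.05. At an unadjusted p under 0.05 there were 2 (1 higher and 1 lower) and 3 (all higher). Of all 13874 genes, 1936 were higher and 1552 lower at that p. DESeq2 and edgeR's other tests, exact and likelihood ratio, called 0 genes of these 2 lists.

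The genes that build ribosomes and those of the mitochondrial ribosome were not shifted upward with the core genes. Of 54 ribosome biogenesis genes, 42 had a negative log2 fold change, with a median of -0.094. Nhp2, a protein of the small RNA particles that guide pseudouridylation, was at 37.7, 31.7 and 27.0 CPM against 56.2 and 59.9 CPM (log2 fold change -0.85 ± 0.15 SE, adjusted p = 0.064 by edgeR), and Myc, a transcription factor of ribosomal genes, was at 6.42, 5.70 and 6.81 CPM against 4.78 and 3.83 CPM. Of 77 mitochondrial ribosomal protein genes, 59 were negative with a median of -0.11, among them Mrps18b (34.5, 32.0 and 28.2 CPM against 42.0 and 43.7 CPM) and Mrps7 (85.4, 80.7 and 79.4 CPM against 94.9 and 109 CPM). By edgeR's quasi-likelihood test 0 genes of either list had an adjusted p under 0.05. At an unadjusted p under 0.05, 1 biogenesis gene was higher and 2 lower, and 1 mitochondrial gene was higher and 14 lower. Over all 13874 genes, 1936 were higher and 1552 lower at that p. The exact test called 1 biogenesis and 0 mitochondrial genes, and DESeq2 and the likelihood ratio test each called 1 in either list. The mitochondrial median was -0.018 without mouse 9056 and -0.19 without mouse 9055.

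Scaling by library size alone moved the median of all genes to 0.17, that of the members to 0.32, of the biogenesis genes to 0.065 and of the mitochondrial genes to 0.053. The last 2 lists thus turned positive, while their order against all genes and against the members stayed. Within a library, counts on core genes per count on mitochondrial ribosomal protein genes were 5.57, 6.11 and 6.13 in Fnip1 null and 5.05 and 4.92 in wildtype mice. The groups did not overlap, and the difference in log2 was 0.25 (exact permutation test, two-sided p = 0.1, the smallest the design allows, adjusted p = 0.27 over 8 ratios). Core genes per biogenesis gene count gave 10.4, 12.3 and 12.2 against 9.80 and 10.4, with mouse 8637 next to mouse 9056.

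**Figure D5:**
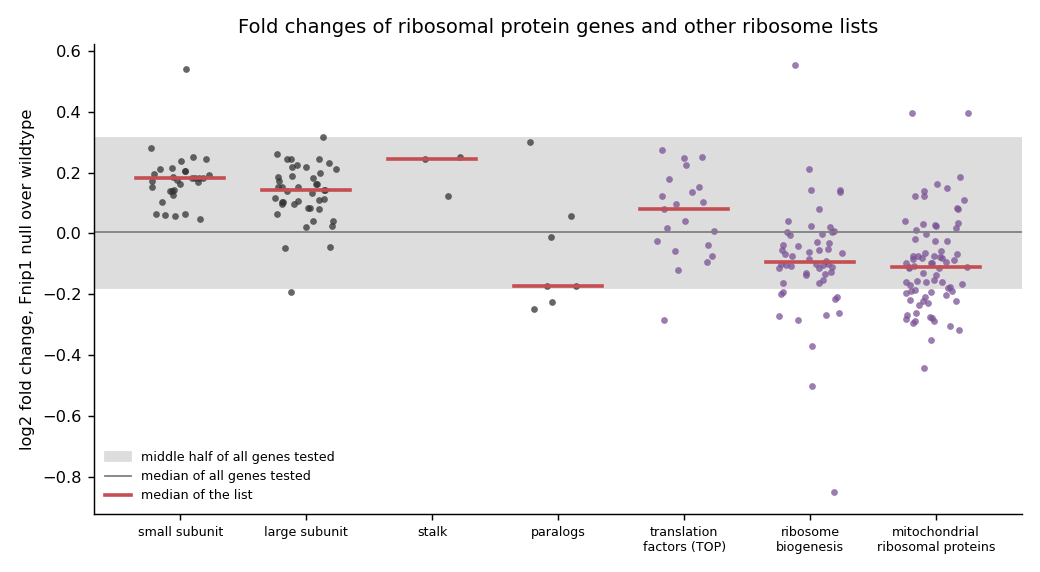
Log2 fold change of Fnip1 null over wildtype for each gene tested, by list, after TMM scaling; red lines are list medians, the grey line and band the median and the quartiles of all genes tested. List medians are highest for the stalk (0.25) and the small subunit (0.18) and lowest for the paralogs (-0.17) and the mitochondrial ribosomal proteins (-0.11), and the biogenesis and mitochondrial medians become positive (0.065 and 0.053) when libraries are scaled by size alone.

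Core genes are short and abundant, and genes with those features were compared in the same fit. The 2084 other genes of at least 100 CPM had a median log2 fold change of -0.13 with 30.3% positive, and the 132 of these with a transcript under 1000 bases had a median of 0.024 with 53.0% positive. The 919 other genes with a transcript under 1000 bases had a median of 0.035. The part of transcript length or of RNA quality in the members' 0.15 was not tested beyond these values.

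Markers of kidney cell types were measured in the same libraries. In bulk tissue, fewer cells of a type and less RNA per cell cannot be told apart. Podocyte markers were positive in 4 of 4 cases (summed 574, 683 and 610 CPM against 323 and 320 CPM), and 2 of the 4 passed edgeR's quasi-likelihood test, Nphs1 among them with an adjusted p of 0.035. In each of the other marker lists below, that test called 0 genes at an adjusted p under 0.05. At an unadjusted p under 0.05, 1936 of all 13874 genes were higher and 1552 lower. The lists had 3 proximal tubule (1 higher, 2 lower), 6 distal and collecting duct (all higher) and 11 leukocyte markers (10 higher, 1 lower) at that p. They also had 2 endothelial and 3 adipocyte markers (all higher) and 0 thick ascending limb markers. In the same order edgeR's exact test called 0, 3, 6, 1, 1 and 0, the likelihood ratio test 1, 3, 6, 1, 2 and 0 and DESeq2 2, 4, 7, 2, 1 and 0. Leukocyte markers were positive in 11 of 12 tested, with sums of 145, 185 and 318 CPM against 156 and 129 CPM and the T cell gene Cd3e at 0.171 to 1.58 CPM. The sum in mouse 8637 lay between those of the wildtype mice. The median log2 fold change of the 12 was 1.19, and the negative marker had -0.61 with all Fnip1 null mice below both wildtype mice. The B cell gene Cd79a had 0 counts in all 3 Fnip1 null mice and was at 0.745 and 0.343 CPM in the wildtype mice. Distal and collecting duct markers were positive in 6 of 7 (1889, 2332 and 2199 CPM against 1356 and 1564 CPM), endothelial markers in 4 of 4 (218, 254 and 290 CPM against 201 and 121 CPM) and thick ascending limb markers in 4 of 4 (8545, 8727 and 12584 CPM against 9584 and 8641 CPM). Adipocyte markers were positive in 3 of 3 tested (52.8, 320 and 153 CPM against 35.1 and 32.9 CPM). Proximal tubule markers, the defining genes of the cortex, were abundant in every mouse but negative in 8 of 10 (14346, 12355 and 11426 CPM against 15256 and 17336 CPM). The part of cell composition in the ribosomal protein values was not tested.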

How the data were processed

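RNAseq libraries of kidney cortical tissue from 3 Fnip1 null and 2 wildtype mice were analysed, 1 library per mouse. The deposited values are raw read counts per gene symbol, which the authors made from paired-end reads of a TruSeq library, a kit that does not mark strand, with TopHat 2.1.0 (mm10) and HTSeq 0.6.1 per the labels. Reads aligning to more than 1 place (28.3% to 31.4% of those listed), to no gene (9.91% to 10.8%) or to several genes (0.741% to 0.803%) have rows of their own, which were kept out of library sizes and tests. The highest share aligning to more than 1 place was in mouse 8637.

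The counts were tested with edgeR 4.0.16 in R 4.3.3: genes with fewer than 10 counts in more than 2 mice were left out, which kept 13874 of the 17850 with a count, libraries were scaled by TMM, and genotypes were compared by the quasi-likelihood test with Benjamini-Hochberg adjustment over all genes kept. The exact and likelihood ratio tests, DESeq2 1.42.0, other scalings and filters and leaving out each mouse were alternatives. The procedure was tested on simulated data with changes of at least 2-fold. Those are far larger than the members' differences, so the simulation does not bear on them. Within-library ratios were compared by an exact permutation test over mice, where 3 against 2 cannot give a p below 0.1. Libraries of the same genotype differed by more than sampling noise. The labels give no age, sex or batch.

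Positions, transcript lengths and 50-base windows are from GENCODE M21 on GRCm38, promoter windows from RefSeq on GRCm38.p6. The members and the lists were chosen with earlier results of these data known. Members named are those with the 6 most positive and 6 most negative log2 fold changes at a mean of at least 1 CPM, the 3 highest and lowest per length, stalk genes, paralogs with their parents, and some with known roles. Rpl41, Rpl35a, Rpl30 and Rpl34 were named after their values were seen. Some genes of these lists are not reported here. Of the other translation lists the 2 genes with the smallest p were named, and marker lists are given by counts and sums.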

Additional observations from a re-analysis of the deposited data

Results flagged for a closer look

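Reads outside the gene counts were at a higher share in some Fnip1 null mice than in either wildtype mouse. Reads aligning to more than 1 place, where reads of ribosomal protein pseudogenes and their parents fall, were 31.4% of those listed in mouse 8637 and 28.6% in mice 9210 and 9121, against 29.0% and 28.3% in the wildtype mice. Mouse 8637 is also the Fnip1 null mouse whose ribosomal protein values lay nearest to wildtype, and whether the shares are related was not tested. Reads on no gene were 10.6%, 10.7% and 10.8% in mice 8637, 9210 and 9121 against 10.1% and 9.91%. Reads on several genes were 0.741%, 0.796% and 0.803% against 0.760% and 0.773%.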

How the results depend on the processing

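No paired analysis was possible because the labels give the mice no replicate numbers; numbers were assigned by accession order and tie no Fnip1 null mouse to a wildtype mouse. The members' median log2 fold change stayed positive under every alternative run, and 0 members were called under each except the fit without mouse 8637. It was 0.32 under scaling by library size alone, where 71 members lay wholly above the wildtype mice and 1 below, and the biogenesis and mitochondrial medians turned to 0.065 and 0.053, Rps19bp1 to 0.061 and Rpl22l1 to 0.15.

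Leaving out each mouse in turn gave 0 to 4 members called higher, a median of 0.10 to 0.22, 38 to 70 members wholly above and 2 to 8 wholly below. With 1 wildtype mouse left, that mouse is assumed to vary like the others. Over all genes, 0 to 1391 were called higher and 0 to 1384 lower: 1391 and 1384 without mouse 8637, 130 and 66 without mouse 9121, and 0 without mouse 9210, 9055 or 9056, where Fnip1 had adjusted p of 0.13, 0.21 and 0.49 by edgeR's quasi-likelihood test and log2 fold changes of -1.44, -1.44 and -1.53. Without mouse 8637, 69 members lay wholly above, and without mouse 9056 it was 70. Log2 fold changes near 0 changed sign: Rps2 (-0.018), Rpl10 (-0.036, its highest 0.12 without mouse 9056), Rpsa (-0.011, its highest 0.11 without mouse 9056) and Rpl37rt (-0.0058) without mouse 9055, Rps27a (-0.0056) and Rpl37rt (-0.0081) without mouse 9210, Rpl22l1 without mouse 8637 (0.056) or 9056 (0.057; lowest -0.091), and Rpl3l (0.21) without mouse 9121 (lowest -0.54 without mouse 8637).

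All genes called higher and lower were 73 and 21 by the quasi-likelihood test, 858 and 504 by the exact test, 945 and 527 by the likelihood ratio test and 858 and 574 by DESeq2; the cause was not tested. Without the 3 members of highest count, which removes counts by construction, the shares were 2.03% in Fnip1 null and 1.64% in wildtype mice. With a mouse left out they ranged from 2.19% to 2.41% and from 1.81% to 1.87%. Changes of about 0.15 in log2 are below what 3 and 2 mice can resolve for single members.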
